A study of Monodelphis domestica with 27 samples.

Results

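Inguinal fat of Monodelphis domestica, the gray short-tailed opossum, was compared between 10 and 6 weeks of age in 10 RNA sequencing libraries, 5 per age, of the 27 in the series. The libraries were taken by their titles, which name the depot and the age, and each came from a different animal. The labels name no strain, genotype or treatment for the animals, which were of both sexes: 2 females and 3 males at 6 weeks, 3 females and 2 males at 10 weeks. Ages in days, as the numbers ending in d in the column names were taken to be, were 45 for every 6-week animal and 70, 71, 71, 72 and 77 for 10-week replicates 1 to 5. Anterior subcutaneous fat served as the reference depot: 9 of the 10 animals also gave an anterior library of the same age, 5 at 6 weeks and 4 at 10 weeks. The 8 interscapular libraries are used only for the levels of single genes and gene sets and in a fit over the whole series.

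Inguinal fat is the subcutaneous depot of the groin. White adipose tissue stores triglyceride in large adipocytes, which share the tissue with progenitor cells, blood vessels, nerves and immune cells. In young mammals such depots grow by the filling of existing adipocytes and by the formation of new ones. In bulk tissue RNA a lower level of a gene can reflect fewer cells of a type or less of its RNA per cell, and these cannot be told apart. The files give genes as Ensembl identifiers without names, and 0 of the 34985 identifiers matched the RefSeq gene table at hand. The tissue was therefore not checked against markers, no pathway was counted, no gene's function is stated and no sequence is shown.

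The 10 libraries held between 10566674 and 14034861 counts. A level of at least 1 CPM (the usual count rate, here on TMM-scaled library sizes) was reached by 13712 to 14229 genes at 6 weeks and by 13286 to 13709 at 10 weeks. Within the 6-week group, replicates 4 and 5 had the most such genes, 14223 and 14229, which lies within the anterior range of 14032 to 14249. Their scaling factors, 0.977 and 1.05, were also the highest of the inguinal libraries, whose others ran from 0.862 to 0.957. No pair of libraries within an age agreed within counting noise, with a chi-square per degree of freedom of 16.8 to 89.3 over 20 pairs, so each was counted as 1 replicate.

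Between 6 and 10 weeks, 2212 of the 13925 genes tested in inguinal fat changed, or 15.9% (adjusted p under 0.05 by edgeR's quasi-likelihood test with the Benjamini-Hochberg procedure, here termed called). Genes that rose numbered 1057 (7.59%) and genes that fell 1155 (8.29%). Before adjustment, 4387 genes had a p under 0.05. The median log2 fold change over all genes tested was -0.013, with quartiles of -0.32 and 0.25, so the bulk of the transcriptome stayed centred near 0. The CPM ranges of the ages did not overlap for 13.2% of the genes tested. The number of calls rests in part on single libraries: it was 1327 without 6-week replicate 4 and 1261 without 10-week replicate 4.

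The falls were larger than the rises in the median, and the rises were concentrated among abundant transcripts. The median size of the change was 1.13 on the log2 scale among the genes that fell (quartiles 0.65 and 1.87, median SE 0.24) and 0.71 among those that rose (quartiles 0.53 and 1.06, median SE 0.16). At least 4-fold changes were found in 237 of the genes that fell and in 40 of those that rose, and at least 8-fold changes in 78 and 8. Genes higher in anterior fat, chosen as given below, are among these large falls. Conversely 364 of the rises and 246 of the falls were under 1.5-fold. Ranges that did not overlap were found for 857 of the 1057 rises but for 634 of the 1155 falls.

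Ordered by mean level in the 10 libraries and cut into 3 equal groups, the genes tested with the highest levels (from 41.5 CPM) held 585 rises and 350 falls, or 12.6% and 7.54% of the 4642. Those in the middle group held 333 rises and 377 falls, or 7.17% and 8.12%. Those with the lowest levels (0.633 to 10.5 CPM) held 139 rises and 428 falls, or 3% and 9.22% of the 4641. The share of falls thus varied little with level, and the share of rises grew with it. Of the 428 falls at low levels 377 were at least 2-fold, against 69 of the 350 at high levels. Genes that rose took 11.5 to 13.5% of all counts in the 6-week libraries and 21.6 to 23.9% in the 10-week libraries. Genes that fell took 11.2 to 15.3% at 6 weeks and 7.39 to 8.32% at 10 weeks. These shares describe genes picked in the same libraries and carry no test.

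**Figure D1:**
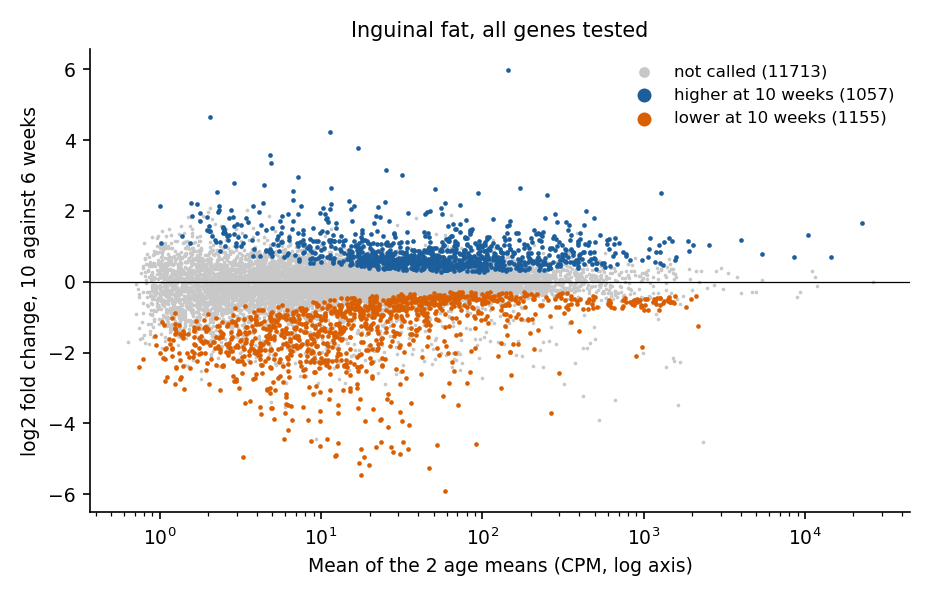
Each point is a gene tested in inguinal fat: the mean of its 6-week and 10-week mean levels in CPM (log axis) against its log2 fold change, 10 against 6 weeks. Blue points are the 1057 genes higher and orange points the 1155 genes lower at 10 weeks (adjusted p under 0.05). Changes of at least 4-fold are found for 237 of the falls and 40 of the rises.

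Each library was then placed by genes called without it, on a scale where 0 is the mean of the other 10-week libraries and 1 the mean of the other 6-week libraries, in log2 of CPM plus 0.5. The median position of the 6-week libraries ran from 0.74 (replicate 3) to 1.07 (replicate 5) in genes that rose. In genes that fell it was 0.78, 1.04, 0.59, 1.03 and 0.90 in replicates 1 to 5. The 10-week libraries lay between -0.01 and 0.19 in genes that rose and between -0.03 and 0.28 in genes that fell. All 10 libraries thus lay nearer their own age in the median. Replicate 3 at 6 weeks lay nearest the middle, with 55.4% of 1139 falling genes closer to the 6-week mean, and 19.3% at or beyond the 10-week mean. In replicate 1 these shares were 68.2% and 13.3% of 943 genes, and in replicate 4 they were 94.3% and 1.06% of 662 genes.

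**Figure D2:**
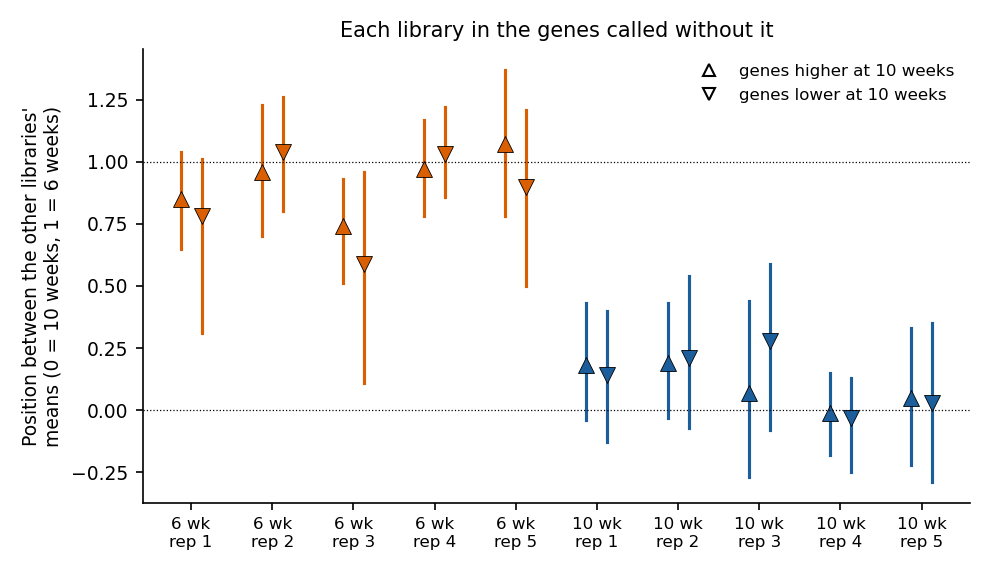
Position of each inguinal library (x axis) in the genes called in the fit without it, where 0 is the mean of the other 10-week and 1 that of the other 6-week libraries. Upward triangles are medians over genes higher at 10 weeks, downward triangles over genes lower at 10 weeks, and lines span the quartiles; 6-week replicates 1 and 3 have the lowest 6-week medians in falling genes, 0.78 and 0.59.

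How near each 6-week library lay to anterior fat was read from genes chosen at 10 weeks alone. In the 4 animals with both depots at that age, tested with the animal as a block, 713 of 14435 genes were at least 4-fold higher in anterior fat at a mean of at least 5 CPM there (4.94%). At least 4-fold higher in inguinal fat, by the same rule, were 22 genes (0.152%). The genes nearest the 4-fold limit of the first set had log2 fold changes of 1.9998 outside and 2.0004 inside it. No 6-week library entered this choice, nor did 10-week inguinal replicate 4, whose animal has no anterior library. The age comparison shares the other 10-week inguinal libraries with it, so the following levels are descriptions without a test.

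The 713 anterior-high genes stood at very different levels among the 6-week inguinal libraries. As a percent of the same animal's anterior library, the median over the genes was 9.98% in 6-week replicate 1, 35.8% in replicate 2, 14.1% in replicate 3, 50.8% in replicate 4 and 59.9% in replicate 5. In 10-week replicates 1, 2, 3 and 5 it was 8.74%, 5.98%, 10.1% and 9.54%. In 10-week replicate 4, set against the mean of the 10-week anterior libraries, it was 7.03%. Replicates 2, 4 and 5 at 6 weeks thus stood above all other inguinal libraries, while replicates 1 and 3 stood at or just above the 10-week range. With that value included, the group means were 34.1 ± 22.0% at 6 weeks and 8.27 ± 1.72% at 10 weeks (SD, n = 5 each). With genes chosen at 2-fold in place of 4-fold the separation was lost, since replicate 3 at 46.5% stood above replicate 2 at 45.7%.

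The spread over the genes also differed. In replicate 5 the quartiles were 54.3% and 68.6%, 1.26 times apart, and the 10th and 90th percentiles 47.9% and 78.0%. In replicates 2 and 4 the quartiles were 1.79 and 1.73 times apart. The 10th and 90th percentiles were 20.4% and 60.2% in replicate 2, and 31.1% and 88.9% in replicate 4. In replicates 1 and 3 the quartiles were 8.23 and 10.4 times apart, as against 6.68 to 8.54 times in the 10-week libraries with an anterior partner. Counts of 0 were found for 70 and 93 of the 713 genes in replicates 1 and 3, for 50 to 73 in the 10-week libraries and for 0 in replicates 2, 4 and 5. In those 3 libraries every gene of the set was therefore detected, at a share of the anterior level that was most even in replicate 5. In the other libraries with an anterior partner the share varied more widely from gene to gene.

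The set took 1.44%, 1.56% and 3.14% of all counts in 6-week replicates 2, 4 and 5, 0.410% and 0.389% in replicates 1 and 3, and 0.364 to 0.524% in the 10-week inguinal libraries. Anterior libraries gave it 2.34 to 5.61% at 6 weeks and 3.77 to 7.06% at 10 weeks. It also varied widely among interscapular libraries, from 1.15 to 4.18% at 6 weeks and from 0.643 to 6.18% at 10 weeks. Replicates 2, 4 and 5 come from 1 female and 2 males, and replicates 1 and 3 from 1 female and 1 male, all at 45 days. What sets these libraries apart, such as the tissue taken or the animals, was not tested.

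**Figure D3:**
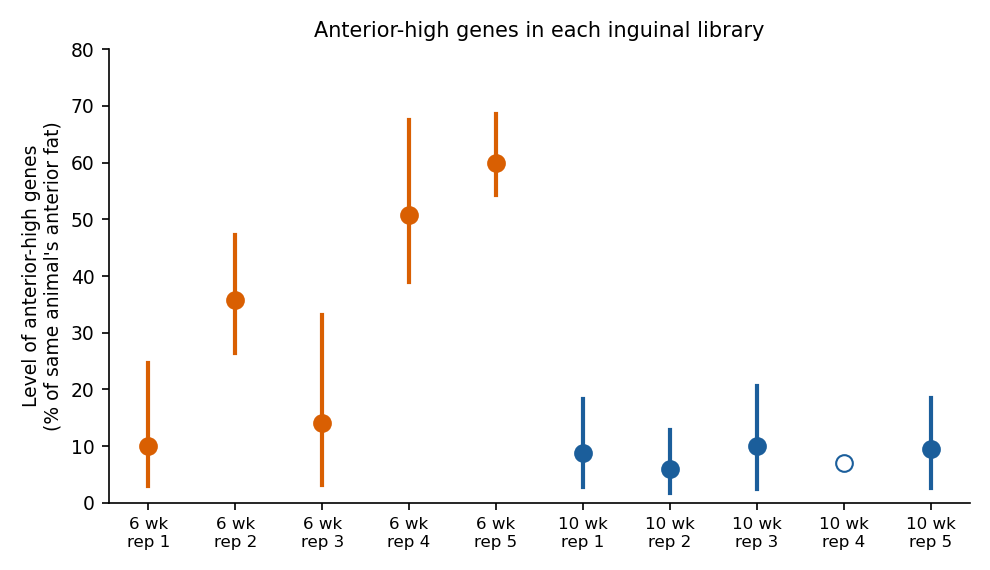
Median level of the 713 anterior-high genes in each inguinal library (x axis) as a percent of the same animal's anterior library, with lines over the quartiles of the genes; 6-week libraries are orange and 10-week libraries blue. The open circle, 10-week replicate 4, is set against the mean of the 10-week anterior libraries, and 6-week replicates 2, 4 and 5 stand at 35.8 to 59.9% while the other libraries stand at 5.98 to 14.1%.

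The 22 inguinal-high genes did not follow this order. Relative to the 10-week inguinal mean of the 4 animals of the choice, their median was 44.6%, 56.0%, 54.4%, 44.5% and 41.5% in 6-week replicates 1 to 5. In 10-week replicate 4, which the choice did not use, it was 91.3%. Every 6-week library, replicates 1 and 3 included, was below that library. In anterior fat the same genes stood at 8.47 to 21.9% at 6 weeks and at 9.53 to 18.8% at 10 weeks.

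The age change of the anterior-high genes depended on replicates 2, 4 and 5, which were singled out by the level of this same set. The set was also chosen as low in 10-week inguinal libraries that the age fits use. The values of this paragraph are therefore descriptions without a test, since both choices favour such a pattern. In the fit of all 10 libraries 518 of the 713 were tested. Their median log2 fold change was -1.46, against -0.013 for all genes tested, and 221 fell (42.7%, beside 8.29% of all) and 0 rose (7.59% of all). Without replicates 4 and 5 the median over 519 genes was -0.82, and 49 fell (9.44%, beside 4.1% of all genes tested) and 0 rose (3.21% of all). Without replicates 2, 4 and 5 the median over 522 genes was 0.14, against 0.033 for all genes tested, and 16 fell (3.07%, beside 1.34% of all) and 4 rose (0.896% of all). For the 22 inguinal-high genes the medians of these fits were 0.89, 0.74 and 0.72. Each of these fits uses the 10-week inguinal libraries in which the 22 genes were chosen as high, so the choice favours a rise. Of these 22 genes 7, 4 and 1 rose, beside 7.59%, 3.21% and 0.896% of all genes tested, and 2, 0 and 0 fell.

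The other falling genes kept most of their median size when those libraries were left out. Of the 1155 genes that fell, 934 lay outside the anterior-high set, with a median log2 fold change of -0.92 (quartiles -1.53 and -0.57). Without replicates 4 and 5 the median of the same genes was -0.88, and without replicates 2, 4 and 5 it was -0.84, with 0 genes of opposite sign in either fit. The 221 falling genes inside the set went from a median of -2.29 to -1.60 and then to -0.46, with 0 and then 58 genes of opposite sign. The 1057 genes that rose, of which 0 lay in the set, had medians of 0.71, 0.69 and 0.63, also with 0 of opposite sign. Of the 635 falls of at least 2-fold in the full fit, 418 lay outside both the anterior-high and the inguinal-high set. Of the 306 rises of that size, 300 did. Most single genes still shrank in the smaller fits. Without replicates 2, 4 and 5 the change was smaller than in the full fit in 778 of the 1155 falling and 763 of the 1057 rising genes. All these genes were picked in the fit of 10 libraries, and the smaller fits share its remaining libraries, so the kept direction is no independent test.

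Significance was lost much more widely than direction. Without replicates 4 and 5, 455 genes rose and 581 fell of 14181 tested (7.31%), and 932 of these 1036 genes were among the 2212. Without replicates 2, 4 and 5, which leaves 2 libraries at 6 weeks, 130 rose and 194 fell of 14502 (2.23%), 297 of them among the 2212. An unadjusted p under 0.05 in the first direction was still reached in that fit by 811 of the 1057 rising and 798 of the 1155 falling genes. The 2 remaining libraries are assumed to vary like the 10-week group in that fit.

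These counts were read beside those from leaving out any other libraries of the 6-week group. Over the 10 pairs the count of called genes ran from 675 (without 2 and 4) to 2335 (without 1 and 3), with a median of 1091.5, and the 1036 without 4 and 5 lay close to that median. Over the 10 sets of 3 it ran from 114 (without 1, 2 and 4) to 1843 (without 1, 2 and 3), with a median of 351.5, beside the 324 without 2, 4 and 5. The 3 highest of these 10 counts, 1387, 1416 and 1843, came from the fits without replicates 1 and 3, in which the 2 remaining 6-week libraries were both from replicates 2, 4 and 5. Leaving out 2 libraries at 10 weeks gave 819 to 1533. Leaving out 2 or 3 libraries therefore lowered the count for most choices. Every 6-week pair except 1 and 3 holds at least 1 of replicates 2, 4 and 5. The other pairs are thus no neutral measure for the loss without 4 and 5. Pairs within replicates 2, 4 and 5 gave 675, 873 and 1036 when left out. Pairs with 1 of them gave 934 to 1655, and the pair of 1 and 3 gave 2335.

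**Figure D4:**
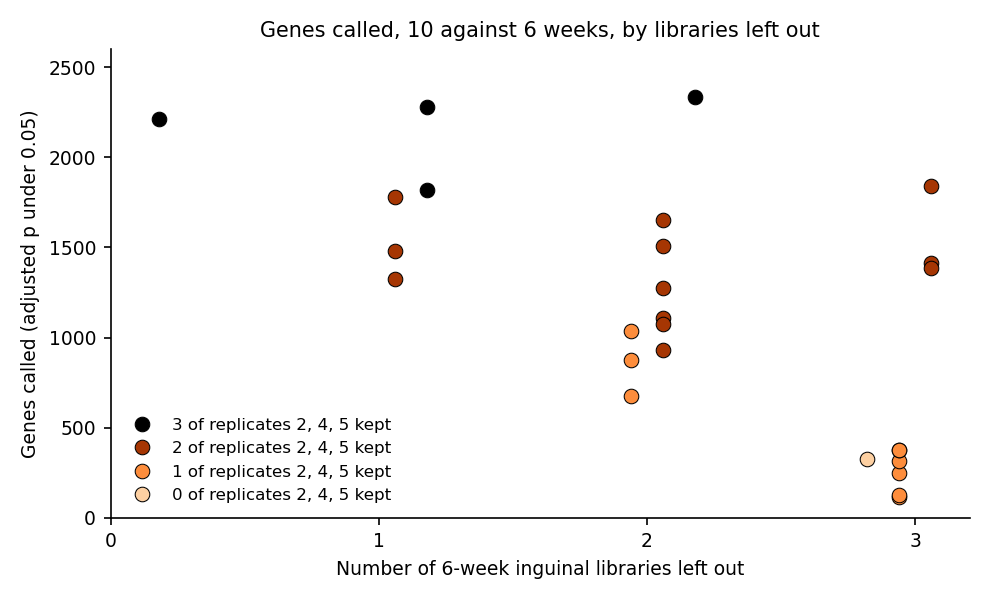
Genes called between 10 and 6 weeks (y axis) by the number of 6-week inguinal libraries left out (x axis), 1 point per fit. Darker points keep more of replicates 2, 4 and 5; the fit of all 10 libraries gave 2212 and the fit without all 3 of them 324.

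A fit with the log2 level of the anterior-high genes in each library as a covariate called 332 genes, 117 higher and 215 lower at 10 weeks, of which 289 were among the 2212. The level differs between the ages, as given above, and the covariate comes from the same libraries, so this fit removes part of any age change that runs along with it. With the sex of the labels as a covariate the count was 2275, with 1943 shared.

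The genes called without replicates 2, 4 and 5 give these 3 libraries a reading in 6-week samples that the choice did not use, though the 10-week libraries are the same. Over the 130 genes that rose, replicates 2, 4 and 5 lay at median positions of 0.89, 0.95 and 1 on the scale from the 10-week mean (0) to the mean of replicates 1 and 3 (1). Over the 194 genes that fell they lay at 0.98, 0.94 and 0.87. Between 76.8% and 89.7% of the genes of each direction were nearer the 6-week mean in each library. In these genes the libraries that resemble anterior fat stood close to the other 6-week libraries.

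Within the 6-week group, the order of these libraries and replicates 1 and 3 was then read in the genes that changed with age. Replicates 2, 4 and 5 all stood above replicates 1 and 3 in 33.2% of the genes that fell, and in 15.8% of all genes tested. They all stood below in 8.40% of the genes that fell, beside 14% of all. In genes that rose the shares were 5.20% above and 26.0% below. The falling genes include 221 of the anterior-high set, by whose level these libraries were singled out. Outside that set the shares were 21.3% above and 10.4% below in the 934 genes that fell, beside 13.2% and 14.5% of all genes tested outside it. No rising gene lies in the set. The genes were called with these same libraries, so the shares are descriptions without a test.

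Single genes were taken from the 395 rising and 427 falling genes that were called with and without replicates 4 and 5 and whose age ranges did not overlap. The 2 with the largest difference in mean CPM were taken in each direction, so the separation of the ages in these genes, and their direction in any fit that leaves libraries out, follow from the rule.

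ENSMODG00000019652 was the most abundant gene of 10-week inguinal fat and the fifth at 6 weeks. It stood at 11099.9, 13158.1, 13073.1, 7861.9 and 7782.3 CPM in 6-week replicates 1 to 5, and at 38504.9, 42832.9, 24742 (replicate 3), 34274.6 and 33650.5 CPM in 10-week replicates 1 to 5. Replicates 4 and 5 were the lowest at 6 weeks and replicate 3 the lowest at 10 weeks. The means were 10595 ± 2662 and 34801 ± 6727 CPM (SD, n = 5 each). The log2 fold change in the fit of the 10 inguinal libraries was 1.66, with an SE of 0.22 (edgeR adjusted p = 0.00102). Without replicates 2, 4 and 5 it was 1.47 (SE 0.23, edgeR adjusted p = 0.0235), and with the anterior-high level as a covariate 1.22 (SE 0.31, edgeR adjusted p = 0.0696). At 10 weeks the gene stood lower in anterior than in inguinal fat (log2 difference -1.1, SE 0.17, edgeR adjusted p = 0.00241). In the fit of all 27 libraries the age change was 1.53 in anterior (SE 0.29) and 1.39 in interscapular fat (SE 0.31). The inguinal age change was not found to differ from either (differences 0.19, SE 0.40, and 0.32, SE 0.41, edgeR adjusted p = 0.868 and 0.998).

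ENSMODG00000009888 stood at 5151.2, 4256.7, 6166.7, 7283.4 and 6084.5 CPM in the 6-week libraries and at 12916.6, 15607.9, 16734.7, 14447.7 and 15380.1 CPM in the 10-week libraries, in the order of replicates. The 6-week libraries thus lay below 10-week replicate 1 by a wide gap, with no order by likeness to anterior fat. The log2 fold change was 1.32 (SE 0.16, edgeR adjusted p = 0.000699), and 1.35 without replicates 2, 4 and 5 (SE 0.16, edgeR adjusted p = 0.0217). Anterior means were 3305 ± 1805 (SD, n = 5) at 6 weeks and 5559 ± 1387 CPM (SD, n = 4) at 10 weeks. At 10 weeks this gene too was lower in anterior than in inguinal fat (log2 difference -1.36, SE 0.18, edgeR adjusted p = 0.00143). The anterior change, 0.75 in log2, did not pass the test (SE 0.32, edgeR adjusted p = 0.243). The difference between the inguinal and the anterior change, 0.63, did not pass it either (SE 0.44, edgeR adjusted p = 0.542). The interscapular change was 1.28, just short of the threshold (SE 0.35, edgeR adjusted p = 0.0506), beside 1.38 for inguinal fat in the same fit.

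ENSMODG00000011306 fell in inguinal fat. It stood at 3862.4, 2886.2, 2406.1, 3562.1 and 2464 CPM in 6-week replicates 1 to 5 and at 1457.4, 1714.3, 1395.9, 1056.8 and 1019.8 CPM in 10-week replicates 1 to 5. Neither replicates 2, 4 and 5 nor 1 and 3 stood apart at 6 weeks. The log2 fold change was -1.24 (SE 0.19, edgeR adjusted p = 0.00200) and -1.29 without replicates 2, 4 and 5 (SE 0.24, edgeR adjusted p = 0.0369). In the fit of all libraries it fell in anterior fat by 1.33 (SE 0.28, edgeR adjusted p = 0.0190), and the interscapular change, -0.94, did not pass the test (SE 0.29, edgeR adjusted p = 0.0854). The inguinal change in that fit was -1.19. At 10 weeks this gene was also lower in anterior than in inguinal fat (log2 difference -1.17, SE 0.19, edgeR adjusted p = 0.00286).

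ENSMODG00000002912 is a member of the anterior-high set, just inside its limit. It stood at 203.0, 522.6, 140.4, 602.8 and 1017.2 CPM in 6-week inguinal replicates 1 to 5 and at 44.9, 41.1, 40.8, 22.3 and 48.0 CPM at 10 weeks. Replicates 2, 4 and 5 were the highest, yet replicates 1 and 3 were also well above the 10-week libraries. The log2 fold change was -3.72 (SE 0.51, edgeR adjusted p = 0.00118), -2.93 without replicates 4 and 5 (SE 0.40, edgeR adjusted p = 0.00568) and -2.18 without replicates 2, 4 and 5 (SE 0.26, edgeR adjusted p = 0.0217). The size of this fall thus depended on those libraries, while its direction in the smaller fits was fixed by the rule. The anterior mean was 766 ± 300 CPM at 6 weeks (SD, n = 5) and 167 ± 52.3 CPM at 10 weeks (SD, n = 4), and the change in the fit of all libraries was -2.20 in log2 (SE 0.53, edgeR adjusted p = 0.0405). The interscapular means were 235 ± 125 and 34.7 ± 23.7 CPM (SD, n = 4 each), and the change there was -2.76 (SE 0.57, edgeR adjusted p = 0.00981). The inguinal minus the anterior change of this gene was -1.46 (SE 0.69, edgeR unadjusted p = 0.0438), which did not pass the test after adjustment (adjusted p = 0.331). Its difference from the interscapular change was -0.89 (SE 0.71, edgeR adjusted p = 0.961).

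**Figure D5:**
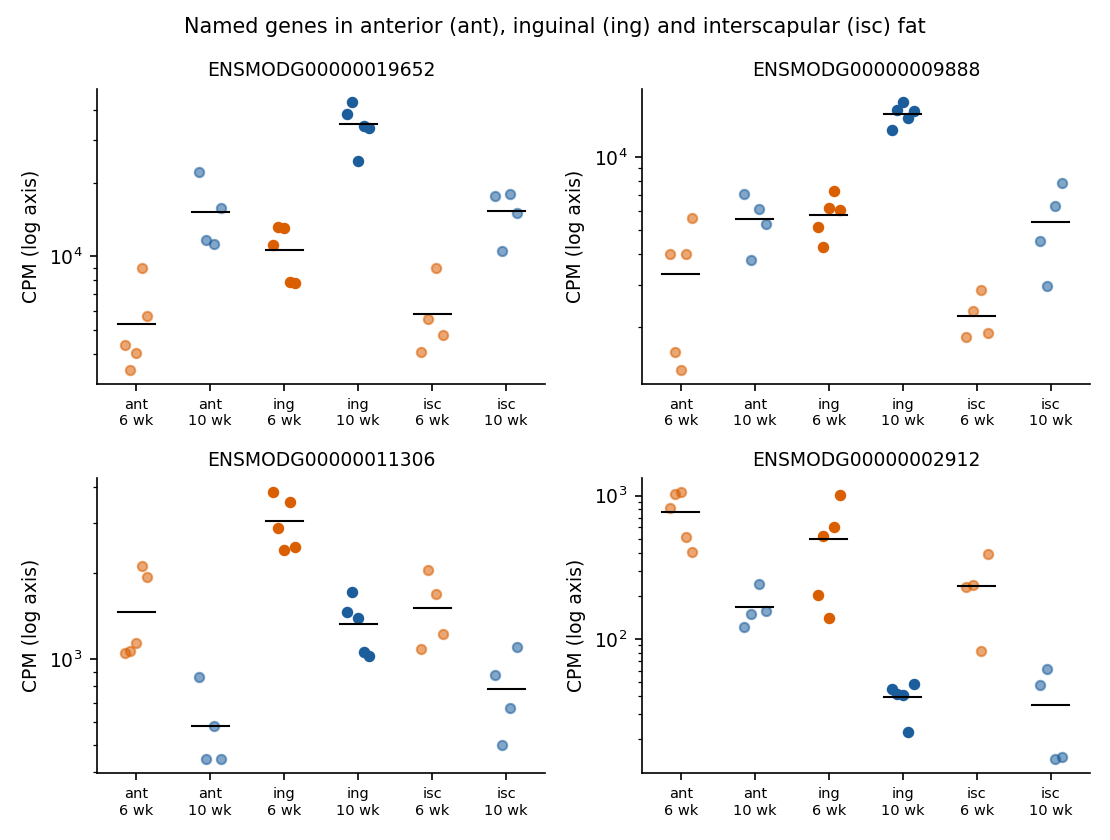
Level of the 4 named genes in every library, in CPM on a log axis, for anterior (ant), inguinal (ing) and interscapular (isc) fat at 6 weeks (orange) and 10 weeks (blue); points are libraries and bars group means. In inguinal fat the ages do not overlap, as the rule for these genes required, and the 6-week libraries of ENSMODG00000002912 spread from 140.4 to 1017.2 CPM.

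Beside the inguinal change, the same genes were read in the other depots in the fit of all 27 libraries, in which the other depots share animals with the inguinal libraries. The 1057 genes that rose in inguinal fat had medians of 0.31 (anterior) and 0.52 (interscapular) on the log2 scale, where the medians of all genes tested were 0.05 and 0.01. The 1155 that fell had medians of -0.23 and -0.46. In anterior fat this fit called 69 of 16221 genes higher (0.425%) and 120 lower (0.74%), of which 49 and 65 were among the inguinal genes of the same direction. In interscapular fat it called 186 higher (1.15%) and 171 lower (1.05%), of which 150 and 150 were among them. In either depot 0 of the inguinal genes were called in the opposite direction. In inguinal fat itself this fit called 1550 of 16221 genes higher and 1530 lower. Its test of a different change, with no animal block, called 39 of 16221 genes between inguinal and anterior fat, 1 higher and 38 lower. Between inguinal and interscapular fat it called 0. The unequal counts of calls are thus no measure of how many genes change differently between depots.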

How the data were processed

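RNA was extracted with Qiazol, per the labels' protocols, which describe a paired-end and a single-end preparation without assigning them to libraries. The deposited files hold whole-number counts per Ensembl gene, not normalized. The submitters' processing notes name STAR as a tool. The genome build, gene models, counter, strandedness and STAR version, each not given in the sources used here, are unknown, so reads of overlapping or near-identical genes may have been split in unknown ways.

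Counts were tested with edgeR 4.0.16 in R 4.3.3 (glmQLFit, glmQLFTest, TMM factors, filterByExpr with minimum count 10 and minimum total 15, Benjamini-Hochberg adjustment over all genes tested), on the 10 inguinal libraries. CPM used TMM factors over all 27 libraries. Standard errors were taken as the size of the log2 fold change over the root of its F statistic. The procedure was checked on simulated data. Alternatives used limma 3.58.1 (voom) and DESeq2 1.42.0, other factors, filters, covariates and left-out libraries.

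Members, gene sets and alternatives were chosen with earlier results of these data known, including which 6-week libraries resemble anterior fat. The 2 identifiers per direction with the largest difference in mean CPM were named, since no symbols could be paired; the gene lists held as symbols were therefore not used. The labels give each library its own animal within inguinal fat, so the spread covers animals. Depth per library was 10566674 to 14034861 counts.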

Additional observations from a re-analysis of the deposited data

Results flagged for a closer look

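Of 26 groups of libraries checked for a value far from the rest, 1 was singled out, and about 1 in 20 such groups is by chance. ENSMODG00000002912 stood at 22.3 CPM in 10-week inguinal replicate 4, below the other 10-week inguinal libraries at 40.8 to 48.0 CPM; this gap made up 0.719 of the group's range.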

How the results depend on the processing

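The count of called genes (2212) stayed within 1.5 times with RLE or upper-quartile factors, limma-voom, DESeq2, no filter, a stricter filter, sex as a covariate and all 27 libraries in 1 fit (1914 to 3309). Leaving out 1 library gave 1261 to 2281. With the replicate block it was 2193; the numbers mark different animals, same-numbered libraries correlated at 0.10, 0.41, -0.03, -0.05 and 0.31 in their deviations, and they share only a number. It was 332 with the anterior-high level as a covariate. Without 6-week pairs 1+2, 1+4, 1+5, 2+4, 2+5, 3+4 and 4+5 it was 1109, 934, 1074, 675, 873, 1277 and 1036, and without 10-week pairs 1+3, 1+4, 1+5, 2+3, 2+4, 2+5, 3+4, 3+5 and 4+5 it was 1185, 851, 1175, 1447, 844, 1176, 1072, 1269 and 819. Without 6-week sets 1+2+4, 1+2+5, 1+3+4, 1+3+5, 1+4+5, 2+3+4, 2+3+5, 2+4+5 and 3+4+5 it was 114, 124, 1416, 1387, 250, 313, 379, 324 and 379; all but 2+4+5 were added after seeing the data. The count of at least 2-fold changes (941) was 1479 by DESeq2, 1418 in the fit of 27 libraries and 276 with the covariate. It was 412, 478 and 572 without 6-week pairs 2+4, 2+5 and 4+5, 243 without 2+4+5, and 495, 607, 502, 626, 619 and 465 without 10-week pairs 1+4, 1+5, 2+4, 2+5, 3+4 and 4+5. Fewer samples enter the fits that leave libraries out; otherwise the cause was not tested. The named genes were chosen for age ranges that do not overlap, which fixes their direction wherever libraries are left out; of their calls, that of ENSMODG00000019652 was lost with the covariate. The anterior-high level of 6-week replicates 2, 4 and 5 was 33.9 to 58.6% with an 8-fold choice (other libraries 2.59 to 5.70%), 39.5 to 62.2% as a ratio of sums (7 to 18.4%) and 39.3 to 82.4% against the mean anterior library (6.98 to 10.2%). With a 2-fold choice it was 45.7 to 68.0%, against 21.7 to 46.5%. Counting depth sets the precision of rare transcripts: 377 of the 428 falls among the lowest-level genes were at least 2-fold, and smaller changes there may go undetected.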
